A study of Mus musculus with 15 samples.

Results

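The genes described here are 3 beta subunits of the sodium pump, Atp1b1, Atp1b2 and Atp1b3, and a pair of cation-chloride cotransporters, Slc12a2 and Slc12a5. They are 5 of the 24346 gene symbols in an expression table of mouse brain cells, and they were taken by symbol. The genes were chosen by their FPKM levels in these same libraries, so their values are given as a description, without p-values. Counts of them by the rule applied to all genes are set beside the share of all genes and support nothing. All 5 passed the filter on low values, which asked for 1 FPKM (fragments per kilobase of transcript, scaled to the mapped fragments of the library) in at least 3 libraries and left 13983 genes for testing.

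RNA of C57BL/6 brain cells was sequenced in 15 libraries, 3 per group. The groups were cells on days 4, 8 and 16 of a chemical induction into neurons (D4, D8 and D16), primary neurons (PN), and astrocytes, whose titles give day 0 (D0). The labels give no compounds or doses, no age of the animals, no days in culture for the primary neurons, and no word on whether the libraries of a group came from separate cultures. P-values therefore measure only the spread between these libraries, which may be technical.

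The sodium pump moves sodium out of the cell and potassium in, at the cost of ATP, and so maintains the gradients that secondary transporters and action potentials draw on. Each pump pairs a catalytic alpha subunit with a glycosylated beta subunit, which the alpha subunit needs to reach the membrane. Atp1b1 encodes the widespread beta-1 subunit, Atp1b2 the beta-2 subunit, first described as the adhesion molecule on glia, and Atp1b3 the beta-3 subunit. Slc12a2 encodes NKCC1, which uses the sodium gradient to bring chloride into the cell. Slc12a5 encodes KCC2, a neuronal cotransporter that moves chloride out with potassium. In maturing brain neurons a rise of KCC2 relative to NKCC1 lowers chloride inside the cell, which makes GABA inhibitory.

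The FPKM values of a library added up to between 548309 and 787080, and libraries of one group correlated at 0.966 to 0.987. Steps between low values put the relative depth of the libraries at 0.712 to 2.04, with 1.71 to 2.04 in PN, and the absolute depth is unknown. Each figure is rough. It is the commonest ratio of low values to those of D0 replicate 1, which held 19.8 to 44.6% of the ratios in the other libraries. The neuron list (8 markers) summed to 770 to 862 FPKM in D16 libraries, 3210 to 4420 FPKM in PN and 273 to 387 FPKM in D0. In D0 that sum was mostly Stmn2 at 304 FPKM, with Snap25 at 0.183 FPKM. Of the 8 neuron markers, 7 had a mean of at least 1 FPKM at D16, 8 in PN and 5 in D0. The exception at D16 was the migrating-neuron marker Dcx, at 0.318 FPKM, near 0, against 133 FPKM in PN. Since these are bulk RNA measurements, fewer cells of a type and less RNA per cell cannot be told apart.

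Among the beta subunits, the induced cells differed from astrocytes in Atp1b2. Atp1b2 was at 49.2, 44.2 and 168 FPKM in the D0 libraries. It was at 18.5, 19.6 and 17.8 FPKM at D4, at 16.2, 9.10 and 15.03 FPKM at D8, and at 15.7, 14.8 and 15.2 FPKM at D16. The PN libraries had 42.4, 50.2 and 26.3 FPKM. Every library of the induced cells was thus below every D0 and every PN library, while PN and D0 overlapped. The D0 value rests in part on 1 library: replicate 3 had more than the other two together. The log2 change of D16 against D0, on the log2(FPKM + 1) scale used for all changes here, was -2.16 ± 0.38 (standard error), and -1.55 without D0 replicate 3. For D4 and D8 against D0 it was -1.89 ± 0.38 and -2.37 ± 0.38, and -1.28 and -1.76 without that library.

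Atp1b1 overlapped with astrocytes at each day of induction and was higher in primary neurons. Its D0 libraries had 75.1, 111 and 140.1 FPKM, and the D4 libraries 88.4, 130.4 and 106.5 FPKM. The D8 libraries had 102, 93.4 and 109.8 FPKM, the D16 libraries 135.7, 87.9 and 157 FPKM, and the PN libraries 459, 426 and 292 FPKM. All 3 PN libraries lay above all 12 others, and the D0, D4, D8 and D16 ranges overlapped. The log2 change was 0.22 ± 0.25 for D16 against D0, 1.86 ± 0.25 for PN against D0 and -1.63 ± 0.25 for D16 against PN. Nme7 overlaps Atp1b1 in the annotation and averaged 6.52 FPKM at D16, 13.4 FPKM in PN and 19.0 FPKM in D0.

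Atp1b3 varied least among the beta subunits from day 0 to day 16. It was at 95.2, 111 and 93.3 FPKM in D0, at 104.7, 111.7 and 103.6 FPKM at D4, at 96.8, 119 and 103 FPKM at D8, and at 100.2, 99.4 and 99.6 FPKM at D16. PN libraries had 45.1, 41.4 and 53.5 FPKM, below every other library. The log2 change was 0.00 ± 0.13 for D16 against D0, -1.09 ± 0.13 for PN against D0 and 1.09 ± 0.13 for D16 against PN.

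**Figure D1:**
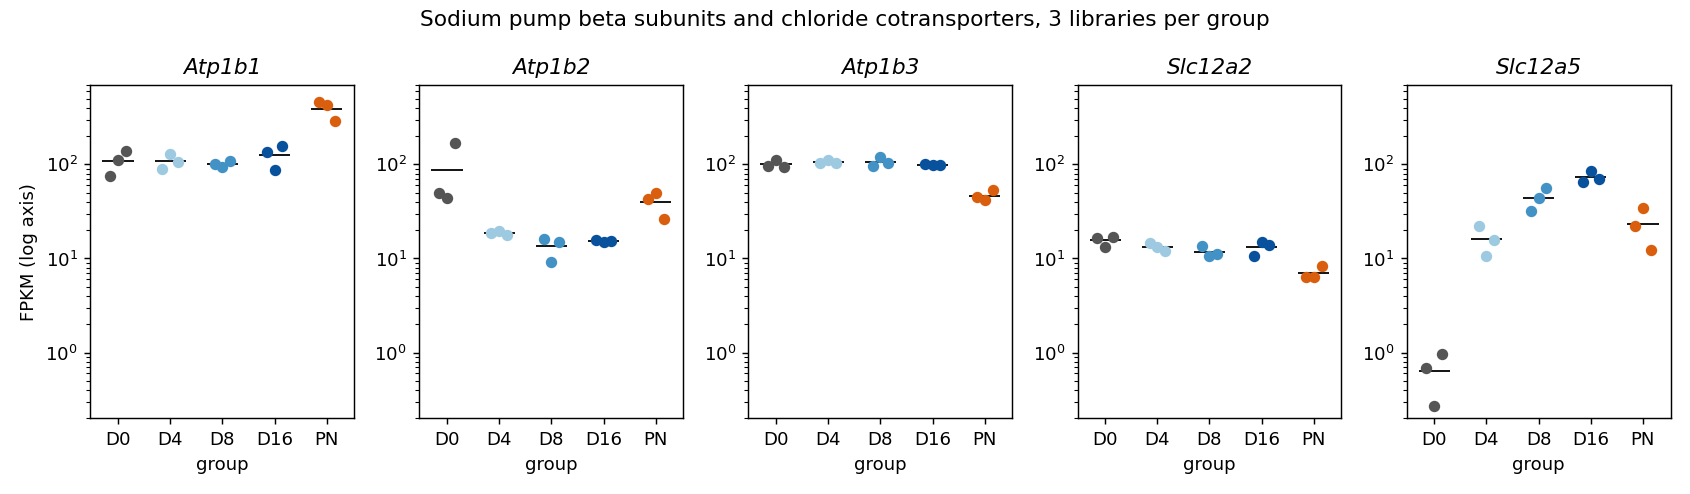
FPKM of the 5 genes on a log axis, with 1 point per library and a line at the mean of each group (3 libraries). Atp1b2 is lower in D4, D8 and D16 than in D0, Slc12a5 climbs from below 1 FPKM in D0 to 64.5 to 85.6 FPKM at D16, and Atp1b1 stands above the other groups in PN.

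Because FPKM is scaled to transcript length, levels of the 3 beta genes can be set beside each other within a library. Their summed FPKM was 242 ± 36.0 at D16, 479 ± 93.6 in PN and 296 ± 94.5 in D0 (mean ± SD, n = 3 each). Beta-2 made up 41.9% of that sum in D0 replicate 3 and 22.4% and 16.6% in the other D0 libraries. Its share lay between 7.47 and 8.77% at D4, between 4.10 and 7.52% at D8, between 5.58 and 7.32% at D16 and between 7.08 and 9.69% in PN. Shares of beta-2 in the induced cells and in PN were therefore all below the lowest D0 share.

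The beta-2 share was low in primary neurons and induced cells alike, but only in induced cells was the Atp1b2 level below every D0 library. The rest of the sum was divided differently between beta-1 and beta-3. In PN, beta-1 held 81.6 ± 2.80% of the sum and beta-3 10.2 ± 3.63%. At D16, beta-1 held 51.7 ± 7.41% and beta-3 41.9 ± 6.54%, and at D0 37.0 ± 4.18% and 36.1 ± 11.2% (SD, n = 3 each). The beta-1 share of every D16 library (43.5 to 57.8%) lay below every PN library (78.5 to 84.0%) and above every D0 library (34.2 to 41.8%). Replicate 2 of D16, with 43.5% beta-1 and 49.2% beta-3, was the only D16 library in which beta-3 exceeded beta-1.

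**Figure D2:**
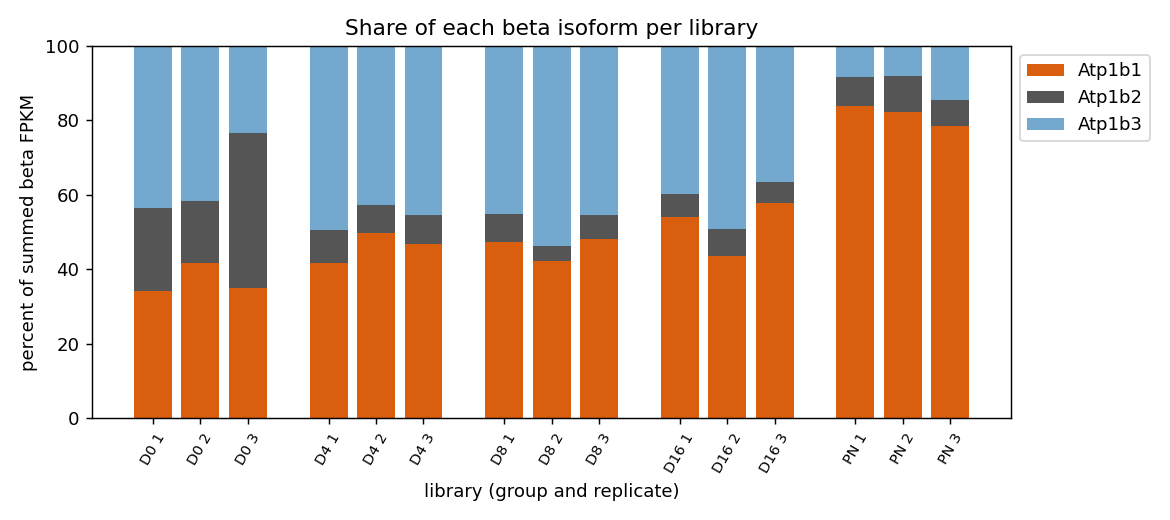
Stacked bars give the percent of the summed FPKM of Atp1b1, Atp1b2 and Atp1b3 that each holds, for each of the 15 libraries. Beta-1 fills 78.5 to 84.0% of the PN bars, and beta-2 fills 16.6 to 41.9% of the D0 bars and at most 9.69% of all others.

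The log2 ratio of Atp1b1 to Atp1b2, with 1 FPKM added to each, was 0.55 ± 0.79 in D0, 2.46 ± 0.25 at D4, 2.87 ± 0.33 at D8, 2.94 ± 0.41 at D16 and 3.30 ± 0.20 in PN (SD, n = 3 each). D16 exceeded D0 by 2.39 ± 0.51 (standard error), and the groups did not overlap. Against PN the ratio at D16 differed by -0.36 ± 0.26 (standard error), with overlapping values. In size this was less than the SD of D16 (0.41) but more than that of PN (0.20). This ratio alone does not show the different place of beta-3, which the shares above do.

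Astrocyte markers, as a sum, were like Atp1b2 lower in every induced library than in every D0 library. From D4 to D16 the sum fell much further, while mean Atp1b2 went from 18.6 to 15.2 FPKM. In PN the sum was below every D0 library, whereas Atp1b2 overlapped. The astrocyte list of 8 markers summed to 692 to 1570 FPKM in D0, 441 to 513 FPKM at D4, 89.1 to 107 FPKM at D8, 42.7 to 48.9 FPKM at D16 and 125 to 216 FPKM in PN. Of the 8, the number with a mean of at least 1 FPKM was 8 in D0, 7 at D4, 6 at D8, 6 at D16 and 7 in PN, and none was at 0 in all libraries of a group. D0 replicate 3, with the highest Atp1b2 value, also had the highest astrocyte sum (1570 FPKM). Most of the D4 sum was Gfap, at 398 FPKM in D4 and 559.6 FPKM in D0. Other markers were already low at D4, with Aqp4 at 1.66 FPKM in D4 and 83.2 FPKM in D0, and Slc1a3 at 6.33 FPKM in D4 and 189 FPKM in D0. The part of astrocyte RNA in the Atp1b2 levels was not tested.

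Of the chloride cotransporters, Slc12a5 changed most. It was at 0.686, 0.271 and 0.961 FPKM in the D0 libraries and at 22.3, 10.5 and 15.9 FPKM at D4. At D8 it was at 32.3, 43.5 and 56.5 FPKM, and at D16 at 64.5, 85.6 and 70.7 FPKM. The PN libraries had 22.3, 34.2 and 12.4 FPKM. The ranges of D0, D4, D8 and D16 followed each other without overlap, and D16 lay above PN in every library. By mean level, Slc12a5 stood above 90.9% of the tested genes at D16, above 71.1% in PN and above 9.68% in D0. The log2 change was 3.36 ± 0.32 for D4 against D0, 4.77 ± 0.32 for D8 against D0, 5.52 ± 0.32 for D16 against D0, 3.79 ± 0.32 for PN against D0 and 1.74 ± 0.32 for D16 against PN.

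Slc12a5 (ENSMUSG00000017740.17) lies on the plus strand of chromosome 2 (GRCm38.p6, start 164960846, end 164999731), and RefSeq gives it a pair of starts. The windows from 250 bases before to 50 after each start are shown because the deposited value is 1 number per gene and does not tell which start was used. Capitals mark the GC box, GGGCGG or its reverse complement. The upstream window is chr2:164960596-164960895 and the downstream one chr2:164967738-164968037.
Slc12a5 upstream start: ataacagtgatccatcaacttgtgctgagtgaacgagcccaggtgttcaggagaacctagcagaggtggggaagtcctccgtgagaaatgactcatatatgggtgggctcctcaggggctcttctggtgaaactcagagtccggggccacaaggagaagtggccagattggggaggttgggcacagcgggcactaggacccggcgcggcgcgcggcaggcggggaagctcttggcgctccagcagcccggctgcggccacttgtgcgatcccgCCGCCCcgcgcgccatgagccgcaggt
Slc12a5 downstream start: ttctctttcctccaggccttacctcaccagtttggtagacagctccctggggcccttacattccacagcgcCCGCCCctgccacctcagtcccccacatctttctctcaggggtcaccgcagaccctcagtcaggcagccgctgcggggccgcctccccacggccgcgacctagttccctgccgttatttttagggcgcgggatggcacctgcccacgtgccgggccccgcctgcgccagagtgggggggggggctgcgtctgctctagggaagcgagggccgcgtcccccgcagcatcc

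Each window held 1 GC box, a match found in 35.7% of the 32851 promoter windows of this length in the RefSeq table. Each held 2 matches to the E-box CANNTG, which 72.3% of all windows hold. The CCAAT box was matched once in the upstream window and not in the downstream one (37.4% of all windows). Neither window held TATAA (24.9%) or CAGCACC, part of the element that the repressor REST binds (7.14%). Both strands were searched, and no matches to different motifs overlapped. Each window had 21 CpG dinucleotides, more than 75.2% of all windows.

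Slc12a2 moved little during induction. Its values were 16.7, 13.1 and 17.1 FPKM in D0, 14.5, 13.1 and 11.97 FPKM at D4, 13.7, 10.6 and 11.2 FPKM at D8, 10.7, 14.9 and 14.02 FPKM at D16, and 6.37, 6.39 and 8.37 FPKM in PN. D16 and D0 overlapped, and all PN libraries were below all others. The log2 change was -0.23 ± 0.17 for D16 against D0, -1.05 ± 0.17 for PN against D0 and 0.82 ± 0.17 for D16 against PN. Choroid plexus also carries Slc12a2, and its list of 8 markers, with ependyma, summed to 78.5 to 233 FPKM in D0, 9.96 to 12.5 FPKM at D16 and 15.1 to 56.1 FPKM in PN. Folr1 was at 0 in all D16 libraries. The part of such cells in the Slc12a2 levels was not tested.

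Setting the pair side by side, Slc12a5 made up 3.76 ± 1.66% of their summed FPKM in D0, 54.0 ± 8.51% at D4, 78.0 ± 6.87% at D8, 84.8 ± 1.20% at D16 and 73.9 ± 12.7% in PN (SD, n = 3 each). D4 replicate 2, at 44.4%, was the only induced library in which Slc12a2 remained above Slc12a5. PN libraries were spread widely, at 77.8%, 84.3% and 59.8%. The sum itself was 86.8 ± 12.8 FPKM at D16, 30.02 ± 9.97 FPKM in PN and 16.3 ± 2.50 FPKM in D0.

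The log2 ratio of Slc12a5 to Slc12a2, with 1 FPKM added to each, was -3.36 ± 0.14 in D0, 0.22 ± 0.46 at D4, 1.79 ± 0.54 at D8, 2.40 ± 0.12 at D16 and 1.48 ± 0.88 in PN (SD, n = 3 each). D16 exceeded D0 by 5.75 ± 0.11 and PN exceeded D0 by 4.83 ± 0.51 (standard errors). D16 exceeded PN by 0.92 ± 0.51, and its lowest library, at 2.26, was only just above the highest of PN, at 2.25. That order depends on the added FPKM. As shares of the summed FPKM, with nothing added, the groups overlapped, at 83.5% in D16 replicate 3 and 84.3% in PN replicate 2. With 0.1 FPKM added in place of 1, the difference of D16 from D0 was 7.004, since Slc12a5 in D0 is below 1 FPKM.

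**Figure D3:**
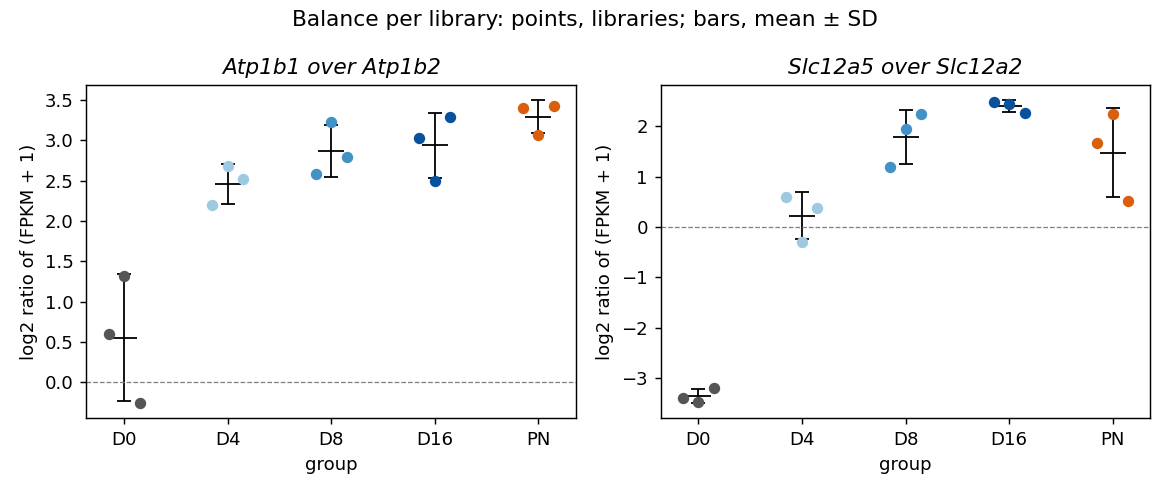
Log2 ratios of (FPKM + 1) for Atp1b1 over Atp1b2 and for Slc12a5 over Slc12a2, with points for libraries and bars for mean ± SD of 3 libraries. The chloride ratio goes from -3.36 in D0 through 0.22 at D4 to 2.40 at D16, while the beta ratio has reached 2.46 by D4.

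By the rule used for all genes, which asked limma for a Benjamini-Hochberg adjusted p under 0.05 and a log2 change of 1 or more in size, 2 of the 5 genes, Atp1b2 and Slc12a5, passed at D4, D8 and D16 against D0. Of all tested genes 27.8%, 32.4% and 35.3% passed in the same 3 comparisons. The groups of the same 2 genes did not overlap there, as was true of 62.6%, 65.5% and 66.8% of all genes. In PN against D0, 4 of 5 passed (41.0% of all genes), all but Atp1b2, and the same 4 did not overlap (68.2%). In D16 against PN, 4 of 5 passed (34.6%), all but Slc12a2, and all 5 had groups that did not overlap (65.3%). Nothing is read from these counts, since the same contrasts were in view when the genes were chosen. Rescaling to an equal total and quantile normalization moved the median change of all genes in PN against D0 from -0.119 to -0.0078 and 0.003. The change of Slc12a2 in that comparison was -0.92 and -0.84 under these scalings, and that of Atp1b3 -0.94 and -0.97, so neither passed. Slc12a2 also no longer passed there without D0 replicate 3, PN replicate 1 or PN replicate 2. In D16 against PN, Atp1b3 did not pass with an equal total. The change of Atp1b2 in PN against D0, -0.89, was -0.28 without D0 replicate 3. It passed without D0 replicate 1, D0 replicate 2 or PN replicate 2.

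In pattern over the 15 libraries, the genes most like Slc12a5 among 11618 ranked were Atp6v1b2, a subunit of the vacuolar proton pump (Pearson r = 0.991), the neuronal zinc-finger repressor gene Scrt1 (0.987) and Lrrc24 (0.986). Atp1b3 was most like Tnfrsf12a (0.985), Mapkapk3 (0.983) and Il11ra1 (0.981), Atp1b1 most like Ntf3 (0.960), Sybu (0.957) and Ncald (0.957), Slc12a2 most like Cdc73 (0.964), Btbd7 (0.959) and Sec63 (0.959), and Atp1b2 most like Atxn1 (0.936), Tada2b (0.934) and Cipc (0.934). Among the 5 themselves, Atp1b1 ran against Atp1b3 (r = -0.923) and Slc12a2 (-0.855), and Atp1b3 ran with Slc12a2 (0.810). These correlations are over log2(FPKM + 1) and share the group structure of the libraries. By mean level PN was the extreme group for Atp1b1, Atp1b3 and Slc12a2. For Slc12a5 and Atp1b2, PN lay between other groups.

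The other genes that act with the pump and the cotransporters were taken from 6 lists of 84 genes, of which 72 passed the filter. Of the 72, 28 were called higher and 10 lower at D16 against D0 (52.8%, against 35.3% of all genes). In PN against D0, 26 were higher and 18 lower (61.1%, against 41.0%), and in D16 against PN 23 were higher and 18 lower (56.9%, against 34.6%). At D4 against D0, 16 were higher and 8 lower (33.3%, against 27.8%), and at D8 20 and 9 (40.3%, against 32.4%). The median log2 change of the 72 at D16 against D0 was 0.286, and that of all genes -0.00633.

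FXYD proteins are small membrane partners that tune the pump, and NKAIN proteins bind its beta-1 subunit. Of 9 tested, 3 were higher and 3 lower at D16 against D0 (66.7%, against 35.3% of all genes), and 6 higher and 2 lower in PN against D0 (88.9%, against 41.0%). Fxyd1, phospholemman, fell to 3.41 ± 1.04 FPKM at D16, against 148 ± 47.2 FPKM in D0 (log2 change -5.05 ± 0.30, limma adjusted p = 3.1e-09). PN was also low in Fxyd1, at 5.08 ± 2.70 FPKM. Fxyd5, dysadherin, and Fxyd6 went opposite ways in D16 and PN. Fxyd5 averaged 46.4 ± 13.4 FPKM at D16, 1.14 ± 0.0926 FPKM in PN and 5.82 ± 5.14 FPKM in D0. Fxyd6 averaged 18.4 ± 0.655 FPKM at D16, 284 ± 31.2 FPKM in PN and 63.7 ± 31.3 FPKM in D0. In D16 against PN the log2 change was 4.43 ± 0.39 for Fxyd5 and -3.87 ± 0.34 for Fxyd6 (limma adjusted p = 1.5e-07 and 1.8e-07). The fall of Fxyd5 in PN against D0 was no longer called without D0 replicate 1. Nkain1 rose at D16 and in PN alike, with 108 ± 3.74 FPKM at D16, 111 ± 15.8 FPKM in PN and 35.3 ± 7.95 FPKM in D0, whereas Nkain2 rose in PN (29.9 ± 8.89 FPKM) and averaged 5.68 ± 2.81 FPKM at D16 and 5.97 ± 2.55 FPKM in D0.

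Within the SLC12 family of cation-chloride cotransporters and their relatives, Slc12a7 (KCC4) rose at D16. Slc12a7 averaged 34.6 ± 8.95 FPKM at D16, 1.80 ± 0.897 FPKM in PN and 11.4 ± 2.97 FPKM in D0. Its log2 change was 1.52 ± 0.27 for D16 against D0 and 3.69 ± 0.27 for D16 against PN (limma adjusted p = 0.00018 and 2.4e-08). Slc12a4 (KCC1) had its highest level in D0, at 64.4 ± 4.91 FPKM. It averaged 35.8 ± 5.08 FPKM at D16, which missed the minimum change, and fell to 5.68 ± 2.70 FPKM in PN (-3.36 ± 0.21 against D0, limma adjusted p = 2.7e-09). Slc12a9 averaged 19.6 ± 0.957 FPKM at D16 and 4.83 ± 0.475 FPKM in PN, with a call in D16 against PN. Of 4 tested in this list, 3 were called higher in D16 against PN (75.0%, against 34.6% of all genes), namely Slc12a4, Slc12a7 and Slc12a9.

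**Figure D4:**
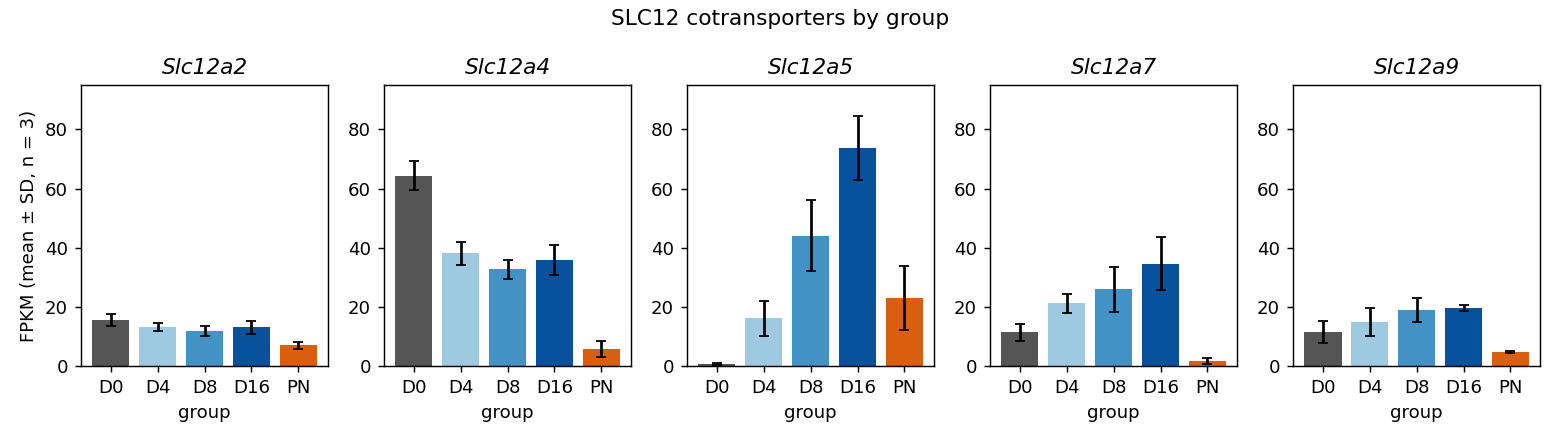
Bars give mean FPKM ± SD (3 libraries) of 5 SLC12 genes by group, on a common axis from 0. Slc12a5 reaches 73.6 FPKM at D16, and Slc12a4 is highest in D0 at 64.4 FPKM and lowest in PN at 5.68 FPKM.

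WNK kinases act through the kinases SPAK (Stk39) and OSR1 (Oxsr1) to activate NKCC1 and restrain the KCCs. Of 14 genes tested in this list, 1 was higher and 3 lower at D16 against D0 (28.6%, below the 35.3% of all genes). Wnk1 fell to 33.0 ± 4.53 FPKM at D16 and 10.9 ± 2.86 FPKM in PN, against 99.3 ± 23.2 FPKM in D0. Wnk2 rose to 7.64 ± 2.35 FPKM at D16 and 17.3 ± 5.80 FPKM in PN, against 1.42 ± 0.522 FPKM in D0. Their log2 changes at D16 against D0 were -1.54 ± 0.24 and 1.83 ± 0.33 (limma adjusted p = 4.1e-05 and 0.0002). Stk39 averaged 23.9 ± 3.31 FPKM at D16 and 12.7 ± 0.312 FPKM in D0, and missed the minimum change at 0.86 ± 0.14. Oxsr1 was at 17.6 ± 1.60 FPKM at D16, 18.3 ± 0.622 FPKM in PN and 17.7 ± 1.42 FPKM in D0. Ckb, brain creatine kinase, which binds KCC2, fell to 555 ± 77.2 FPKM at D16 and 489 ± 66.0 FPKM in PN, against 2870 ± 539 FPKM in D0 (-2.36 ± 0.21 at D16, limma adjusted p = 1.9e-07).

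Anion exchangers and bicarbonate transporters of the SLC4 and SLC26 families also set chloride and pH. Of 11 tested, 6 were higher and 1 lower at D16 against D0 (63.6%, against 35.3% of all genes), and 3 higher and 3 lower in PN against D0 (54.5%, against 41.0%). Slc4a4, the sodium bicarbonate cotransporter NBCe1 of astrocytes, was the one that fell, to 4.22 ± 0.252 FPKM at D16, against 25.8 ± 9.76 FPKM in D0 (-2.29 ± 0.32, limma adjusted p = 2e-05). The sodium-driven chloride bicarbonate exchanger Slc4a8 rose to 8.73 ± 1.59 FPKM at D16 and 8.35 ± 2.998 FPKM in PN, against 1.24 ± 0.618 FPKM in D0. Slc26a2, a sulfate transporter, rose to 8.66 ± 1.30 FPKM at D16, against 1.92 ± 0.907 FPKM in D0, and was at 1.03 ± 0.199 FPKM in PN. Slc4a2, the anion exchanger AE2, was higher at D16 than in PN, at 42.1 ± 4.13 FPKM in D16 and 3.48 ± 0.898 FPKM in PN (3.28 ± 0.15, limma adjusted p = 2.6e-10), while D0 was at 38.0 ± 1.06 FPKM.

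**Figure D5:**
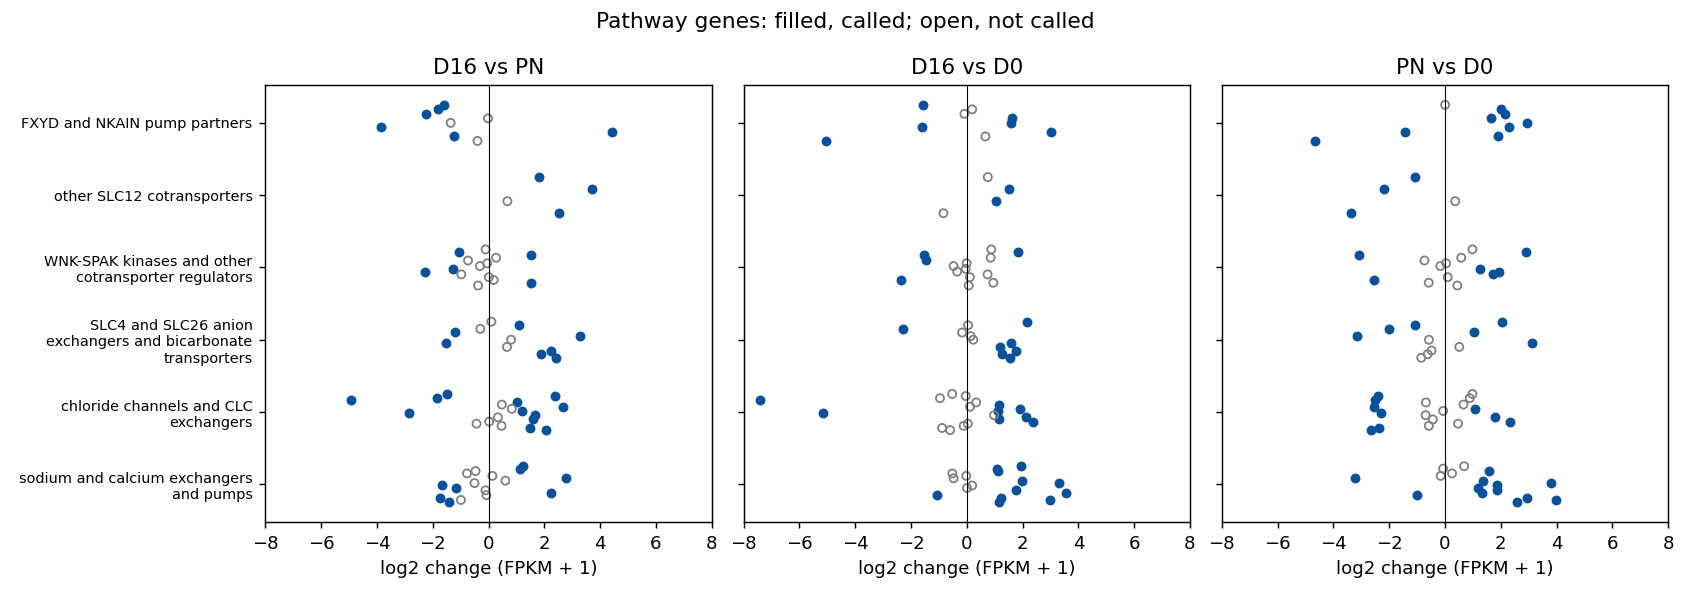
Log2 changes of the 72 tested genes of the 6 lists on the log2(FPKM + 1) scale, for D16 against PN, D16 against D0 and PN against D0. Filled points were called and open points were not, and the far left points of the chloride channel list at D16 against D0 are Mlc1 (-7.42) and Hepacam (-5.14).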

How the data were processed

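Paired-end RNA sequencing (read length 150, per the labels) was deposited by the authors as 1 table of FPKM values for 15 libraries. The build was mm10 (GRCm38), per the submitters' processing notes. Which aligner, quantifier, annotation and strand setting were used is not given in the sources used here. Members, lists and tests were chosen with earlier results of these data known. Values were transformed as log2(FPKM + 1), which understates the change of low genes. A model of group means over the 15 libraries was fitted with limma 3.58.1 under R 4.3.3 (10 residual degrees of freedom, variance trend), with Benjamini-Hochberg adjustment over 13983 genes that reached 1 FPKM in 3 libraries. Calls needed an adjusted p under 0.05 and a log2 change of 1 or more in size. The fit was tested on simulated data. Named pathway genes were called, reached 5 FPKM, and were among the 4 largest changes of their list in a comparison; further list members are named to complete a family. For each member the 3 genes of highest correlation were named. Clcn4-2 and Hepacam were matched through older names. A further list written with the others, of pump alpha subunits and relatives, is not reported here. It was left out after its values had been seen, and the counts of pathway genes do not include it. Values of 1 listed gene that is in those counts are not reported here. Positions, promoters and overlaps came from RefSeq GRCm38.p6, and 3 of 5 members had a promoter entry. Python 3.11.15, numpy 2.4.6, pandas 2.3.3 and matplotlib 3.10.9 made tables and figures.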

Additional observations from a re-analysis of the deposited data

How the results depend on the processing

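Leaving out 1 library gave log2 changes at D16 against D0 of -2.50 to -1.55 for Atp1b2 and 5.35 to 5.66 for Slc12a5, and a pseudocount of 0.1 gave 6.76 for Slc12a5. The beta ratio kept its direction in all settings run, and leaving out 1 library gave differences of 1.505 to 2.29 (D4 against D0), 1.91 to 2.70 (D8), 1.98 to 2.77 (D16), 2.34 to 3.13 (PN against D0) and -0.53 to -0.14 (D16 against PN). For the chloride ratio those ranges were 3.399 to 3.84, 4.92 to 5.44, 5.69 to 5.83, 4.45 to 5.31 and 0.44 to 1.30. A pseudocount of 0.1 gave chloride differences of 4.77 (D4), 6.39 (D8), 7.004 (D16) and 6.12 (PN) against D0, and quantile normalization gave 5.58 for D16. Without a minimum on the change, 7587, 8340 and 8775 genes were called at D4, D8 and D16 against D0, 9067 in PN against D0 and 8678 in D16 against PN, and the pathway genes called at D4 and D8 were 40 and 47. Leaving out 1 library gave 3639 to 3962, 4294 to 4571, 4667 to 5103, 5440 to 5765 and 4598 to 4943 called genes in the 5 comparisons, and 22 to 26, 28 to 33, 35 to 41, 41 to 45 and 38 to 43 pathway genes. Deviations of same-number libraries from their group means correlated at -0.135 to 0.275, and no comparison had all 3 pairs over 0.1, so the numbers were not read as pairing. With the replicate block, which changed no count of calls by over 1.5 times, 4948 genes were called at D16 against D0 (4935 without it). Absolute depth is unknown, which leaves the precision of Slc12a5 in D0 unquantified.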

Other observations

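Chloride channels and CLC exchangers had 6 of 18 tested genes higher and 2 lower at D16 against D0 (44.4%, against 35.3% of all genes). In D16 against PN, 8 were higher and 4 lower (66.7%, against 34.6% of all genes). Among the CLC exchangers of endosomes and lysosomes, Clcn4-2 rose to 79.0 ± 7.88 FPKM at D16 and 77.7 ± 5.99 FPKM in PN, against 14.99 ± 5.37 FPKM in D0 (mean ± SD, n = 3 each). Clcn6 rose to 36.8 ± 9.12 FPKM at D16 and 29.0 ± 7.18 FPKM in PN, against 7.74 ± 2.45 FPKM in D0. Lrrc8b, a subunit of the volume-regulated anion channel, rose to 45.6 ± 8.22 FPKM at D16 and 25.5 ± 6.95 FPKM in PN, against 11.6 ± 4.24 FPKM in D0, and its call in PN was lost without D0 replicate 2 or PN replicate 2. Lrrc8c separated D16 from PN, at 30.2 ± 6.76 FPKM in D16 and 3.90 ± 0.504 FPKM in PN (log2 change 2.65 ± 0.17, limma adjusted p = 5.7e-09). In D0 it was at 27.4 ± 3.89 FPKM, and D16 against D0 was not called. The 2 genes that fell at D16 were Mlc1 and Hepacam, whose products form a complex in astrocyte membranes. Hepacam averaged 0.231 ± 0.121 FPKM at D16, 8.06 ± 2.68 FPKM in PN and 44.8 ± 19.3 FPKM in D0.

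Exchangers and pumps that use the sodium gradient or remove calcium had 10 of 16 tested genes higher and 1 lower at D16 against D0 (68.8%, against 35.3% of all genes). In PN against D0, 10 were higher and 2 lower (75.0%, against 41.0% of all genes). The sodium-calcium exchanger gene Slc8a2 rose to 18.2 ± 4.51 FPKM at D16 and 27.9 ± 14.2 FPKM in PN, against 0.970 ± 0.493 FPKM in D0. The calcium pump gene Atp2b2 rose to 8.74 ± 0.751 FPKM at D16 and 19.0 ± 6.23 FPKM in PN, against 0.241 ± 0.163 FPKM in D0. Slc24a2, a potassium-dependent sodium-calcium exchanger, was higher at D16 than in PN, at 11.9 ± 1.04 FPKM in D16 and 1.96 ± 1.48 FPKM in PN (2.23 ± 0.28, limma adjusted p = 5.6e-06). Slc8b1, the mitochondrial exchanger, was at 7.99 ± 2.61 FPKM at D16 and 0.283 ± 0.101 FPKM in PN (2.77 ± 0.24, limma adjusted p = 1.4e-07). Its D0 level was 11.5 ± 3.86 FPKM, and D16 against D0 was not called. Atp2b4 fell to 14.8 ± 1.12 FPKM at D16, against 33.8 ± 12.2 FPKM in D0, a call lost with quantile normalization and without D0 replicate 3.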
